A study of Mus musculus with 50 samples.

Results

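The 6 mature miRNAs described here are mmu-miR-423-5p, mmu-miR-423-3p, mmu-miR-484, mmu-miR-103-3p, mmu-miR-107-3p and mmu-miR-320-3p (written without the species prefix from here on). They belong to the miRNAs that are commonly used as internal references when serum miRNAs are measured by qPCR. They were chosen by name, though with earlier results of these data known. All 6 were found among the 1892 mature miRNA entries of the count table. The question was how steady they were over surgery and stroke. Small RNA of blood serum was sequenced in 5 groups of 5 libraries, all from C57BL/6 mice 8 to 12 weeks old. MCAO mice had the left middle cerebral artery blocked by a filament for 30 min, and their blood was drawn after 150 min of reperfusion. MCAO_Sham mice went through that preparation with no filament put into the vessel. In ICH mice, 20 µL of autologous blood was put into the striatum to model intracerebral hemorrhage. ICH_Sham mice had the needle placed with nothing injected. Naive mice were untreated, so they lacked anesthesia and surgery, which the other 4 groups shared. Where the labels do not say that libraries came from separate mice, p-values measure the spread between libraries, which may be technical in part.

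A reference is meant to hold still while other miRNAs move, so that dividing by it removes differences in RNA yield and input. miR-423-5p and miR-423-3p are the opposite arms of 1 hairpin and normally come from the same precursor. miR-103 and miR-107 are paralogs hosted by the pantothenate kinase genes, and in mouse they are known to act on insulin sensitivity. miR-320 and miR-484 are known for precursors with a cap that bypass Drosha, the nuclear enzyme that cuts most precursors. Serum miRNAs are released by blood cells, vessel walls, liver, muscle and other organs, bound to proteins or carried in vesicles.

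The mature sequences, from RefSeq (GRCm38.p6), matched 5 of the 6 names. They are shown 5′ to 3′ because 2 members differ by a single base and because their base composition is used further on, with the seed (bases 2 to 8) in capitals.
miR-423-5p: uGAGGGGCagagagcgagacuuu
miR-423-3p: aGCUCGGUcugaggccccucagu
miR-484: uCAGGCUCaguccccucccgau
miR-103-3p: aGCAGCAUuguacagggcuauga
miR-107-3p: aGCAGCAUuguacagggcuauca
miR-103-3p and miR-107-3p shared their seed and 22 of 23 bases, with the 1 substitution G22C counted from the 5′ end of miR-103-3p. Reads that end before that base cannot be told apart, and how such reads were counted is not given in the sources used here. Among the miRNAs that passed the filter on low counts and had a sequence (168 of 199), no other one had the seed of any of these 5. The rest could not be checked.

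In GRCm38.p6 the Mir423 hairpin lay on the minus strand at chr11:77078064-77078172, in an intron of Nsrp1. Mir484 lay on the plus strand at chr16:14159626-14159692, where it overlapped an exon of Marf1 on the opposite strand. The mature miR-103-3p sequence occurred in Mir103-1 at chr11:35782396-35782481, in an intron of Pank3, and in Mir103-2 at chr2:131288052-131288137, in an intron of Pank2. Mir107 lay at chr19:34820687-34820773 in an intron of Pank1. Counts of miR-103-3p therefore cannot be assigned to 1 of its 2 genes. The 4 other arms listed for these hairpins (miR-103-1-5p, miR-103-2-5p, miR-107-5p and miR-320-5p) had 0 counts in all libraries, whereas both arms of miR-423 were abundant.

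Library totals ran from 38393 to 315646 counts, with 72222 to 315646 for MCAO, 51338 to 182763 for MCAO_Sham, 92040 to 156842 for ICH, 75052 to 183112 for ICH_Sham and 38393 to 83564 for Naive. After filtering, 199 miRNAs with 99.5% of the counts were kept, among them all 6 reference miRNAs. Levels are given as CPM (counts per 1000000) after TMM scaling (the trimmed mean of M values), and are shares of the miRNA pool. TMM factors were 0.636 in MCAO replicate 2, 0.729 in ICH_Sham replicate 1 and 0.724 in Naive replicate 2, and above 0.75 in the other libraries. An altered amount of 1 miRNA and an altered remainder of the pool cannot be told apart. The red cell markers (4 of 4 detected) summed to 18205 to 31843 CPM for MCAO, 24356 to 64100.4 for MCAO_Sham, 16689 to 26310.5 for ICH, 21849 to 38067 for ICH_Sham and 39105 to 73118 for Naive. The lymphocyte markers (3 of 3 detected) summed to 2776 to 6336, 4255 to 9440, 2823 to 5346, 4731 to 6631 and 7753 to 18610.4 CPM in the same order of groups. For both lists the ranges of the sums in MCAO, ICH and ICH_Sham did not overlap that of Naive, whereas the MCAO_Sham range did. miR-451a alone, which is in the red cell list, did overlap, with 5347 to 8702 CPM in MCAO and 5024 to 9208 CPM in Naive. The lists for platelets and myeloid cells, liver, muscle and neurons (4, 1, 3 and 3 markers, all detected) had overlapping ranges in MCAO and Naive. Their medians were 6634 in MCAO and 9522 CPM in Naive for platelets and myeloid cells, and 63530.3 in MCAO and 33481 CPM in Naive for liver. For muscle they were 33325 in MCAO and 26979 CPM in Naive, and for neurons 13205 in MCAO and 11643 CPM in Naive.

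**Figure D1:**
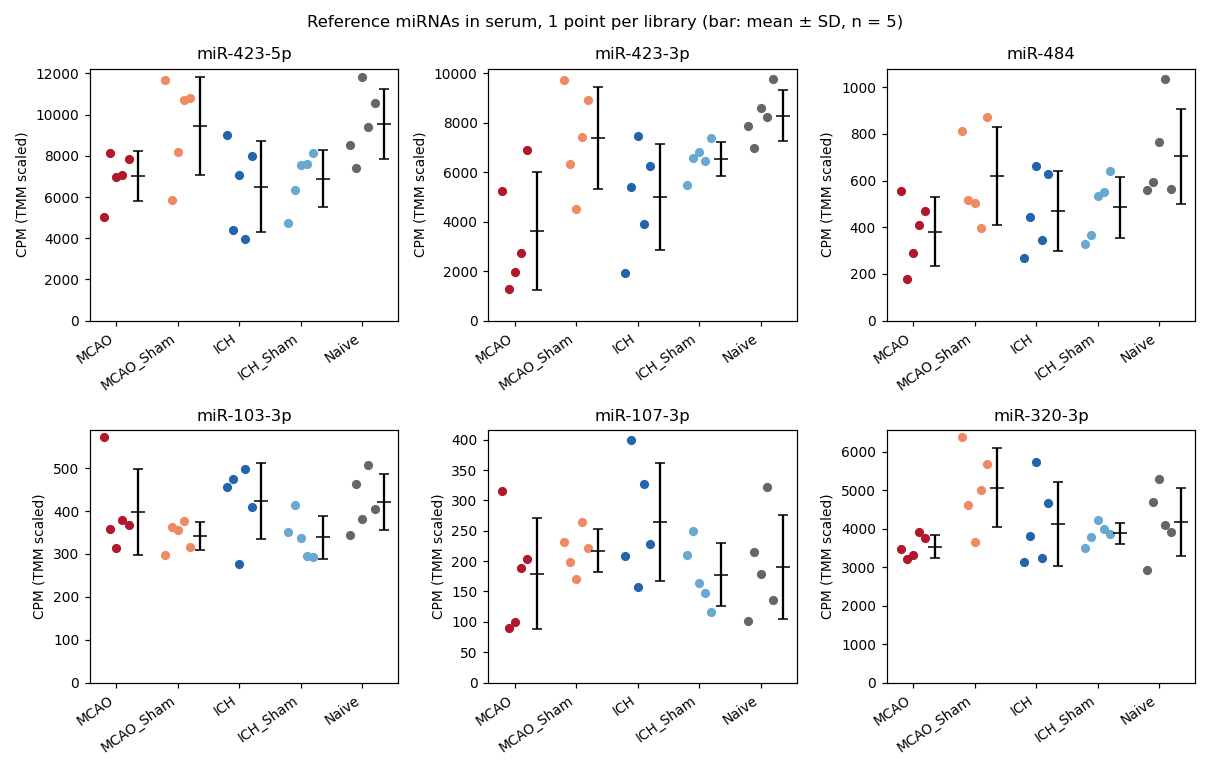
Level of each reference miRNA in CPM after TMM scaling (y axes from 0) in the 5 groups. Each point is 1 library, and the bar beside the points is the mean ± SD (n = 5). miR-423-3p spans 1265 to 9756 CPM, whereas miR-103-3p stays within 276 to 573 CPM.

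Over all 25 libraries miR-423-3p was the least steady of the 6. Within groups it had an SD of log2 CPM of 0.997 in MCAO, 0.767 in ICH and 0.438 in MCAO_Sham, but 0.158 in ICH_Sham and 0.176 in Naive. In MCAO it had 5254, 1265, 1983, 2728 and 6906 CPM (replicates 1 to 5), against 9703, 6322, 4514, 7435 and 8924 CPM in MCAO_Sham (replicates 1, 2, 4, 5 and 7). In ICH it had 1918, 5400.5, 7451, 3893 and 6249 CPM, against 5468, 6565, 6808, 6455 and 7379 CPM in ICH_Sham. Naive libraries had 7864, 6976, 8586, 8206 and 9756 CPM. MCAO replicates 2, 3 and 4 lay below every MCAO_Sham library while replicates 1 and 5 lay among them. All 5 MCAO libraries lay below all 5 Naive libraries, but for how many of all miRNAs this held was not determined. The MCAO mean was 3627 ± 2371 CPM and the MCAO_Sham mean 7379.6 ± 2068 CPM. ICH libraries averaged 4982 ± 2148, ICH_Sham libraries 6535 ± 695 and Naive libraries 8278 ± 1019 CPM (SD over 5 libraries throughout).

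miR-423-5p, the other arm, had 5044, 8130.3, 6986, 7067 and 7856 CPM in MCAO, against 11706, 5877, 8181, 10699.9 and 10808 CPM in MCAO_Sham. It had 9002, 4415, 7086, 3968 and 8016 CPM in ICH, against 4756, 6366, 7580.4, 7628 and 8163 CPM in ICH_Sham, and 8550.1, 7423, 11821, 9382 and 10544 CPM in Naive. The groups overlapped in all pairwise comparisons, and 1 MCAO library lay below the MCAO_Sham range. In human plasma this miRNA is known as a marker studied in heart failure.

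miR-484, which in mouse is known to act on a mitochondrial fission factor, was at lower levels. It had 557, 179, 289.8, 411 and 469 CPM in MCAO, against 811, 515, 506, 396 and 873 CPM in MCAO_Sham. It had 268, 446, 661, 344 and 628 CPM in ICH, against 329.6, 365, 534, 552 and 643 CPM in ICH_Sham, and 559, 595, 764, 1037 and 563 CPM in Naive. Every MCAO library lay below every Naive library, though for how many of all miRNAs this held was not determined. The gap was narrow: the highest MCAO library had 557 and the lowest Naive library 559 CPM. Between 21 and 101 reads stood behind each of these values.

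miR-103-3p varied little. It had 573, 358, 313, 378 and 367 CPM in MCAO, against 298, 363, 356, 377 and 316 CPM in MCAO_Sham. It had 457, 474, 276, 498 and 408 CPM in ICH, against 352, 415, 337, 296 and 292 CPM in ICH_Sham, and 343, 463, 382, 507 and 406 CPM in Naive. All groups overlapped, and MCAO replicate 1 stood above the rest of its group. The values rest on 15 to 87 reads per library.

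miR-107-3p was the scarcest member, with 6 to 57 reads per library. It had 315, 89.6, 99.1, 189 and 202.7 CPM in MCAO, against 232, 199, 170.3 and 264 CPM in MCAO_Sham replicates 1, 2, 4 and 5. MCAO_Sham replicate 7, with 21 reads, lay between replicates 2 and 1. It had 208.7, 399.7, 158, 326 and 228 CPM in ICH, against 209.7, 249, 164, 148 and 117 CPM in ICH_Sham, and 102, 214.9, 178, 323 and 135 CPM in Naive. All groups overlapped, and the MCAO range extended past the MCAO_Sham range on both sides.

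miR-320-3p had 3471, 3201, 3310.0, 3903 and 3763 CPM in MCAO, against 6375, 4613, 3652, 5001 and 5672 CPM in MCAO_Sham. It had 3119.9, 3811, 5724, 3240.5 and 4671 CPM in ICH, against 3505, 3785, 4234, 3982 and 3859 CPM in ICH_Sham, and 2922, 4678, 5274, 4103 and 3920.3 CPM in Naive. Its MCAO libraries were the tightest among the groups other than ICH_Sham, and 3 of them lay below all MCAO_Sham libraries. Across all 25 libraries the highest value of each member exceeded its lowest by 7.71-fold for miR-423-3p, 5.79-fold for miR-484, 4.46-fold for miR-107-3p, 2.98-fold for miR-423-5p, 2.18-fold for miR-320-3p and 2.07-fold for miR-103-3p.

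MCAO against MCAO_Sham isolates the filament occlusion from the rest of the operation. None of the 6 reference miRNAs passed the test, against 7.54% of the 199 miRNAs tested (15 called, edgeR quasi-likelihood test, adjusted p under 0.05). Before adjustment 3 of the 6 had p under 0.05, as had 66 of 199 miRNAs. miR-423-3p had the largest log2 fold change, -1.03 ± 0.34 (SE), with an edgeR adjusted p of 0.0515. miR-484 stood at -0.72 ± 0.30 (edgeR adjusted p = 0.0927), miR-320-3p at -0.52 ± 0.19 (0.0635) and miR-423-5p at -0.43 ± 0.23 (0.171). miR-107-3p was at -0.28 ± 0.33 (edgeR adjusted p = 0.574) and miR-103-3p at 0.22 ± 0.20 (0.457). The median over the 6 was -0.47, beside 0.00 over all 199. The call for miR-423-3p turned on the setting: it passed in 21 of 42 alternatives, with log2 fold changes between -1.43 and -0.45. DESeq2 called 43 of all miRNAs and 2 of the 6, among them miR-423-3p at -1.04 (adjusted p = 0.0332), and limma voom called 29 of all miRNAs and 1 of the 6. With a red cell ratio (log2 miR-451a over miR-23a-3p) as a covariate, miR-423-3p was at -0.71 (edgeR adjusted p = 0.175), miR-484 at -0.42 (0.407) and miR-320-3p at -0.32 (0.358). With it miR-423-5p was at -0.29 (edgeR adjusted p = 0.516), miR-107-3p at -0.30 (0.711) and miR-103-3p at 0.10 (0.835), and 2 of all miRNAs were called. miR-23a-3p itself averaged 11680 CPM in MCAO, 14728 in MCAO_Sham and 20711 in ICH, so this ratio need not follow red cells alone. Without MCAO replicate 5 miR-423-3p was at -1.43 (edgeR adjusted p = 0.00296), and without MCAO replicate 2 at -0.82 (0.185).

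MCAO against Naive joins the operation and the occlusion. miR-423-3p and miR-484 were called lower, where 30.7% of all miRNAs were called and 13.1% were called lower. Neither overlapped between the groups, but the share of all miRNAs without overlap was not determined. miR-423-3p changed by -1.20 ± 0.34 on the log2 scale (edgeR adjusted p = 0.0121). miR-484 changed by -0.89 ± 0.30 (edgeR adjusted p = 0.0309). The remaining members did not pass: miR-423-5p was at -0.44 ± 0.23 (edgeR adjusted p = 0.139), miR-320-3p at -0.24 ± 0.19 (0.360), miR-107-3p at -0.08 ± 0.36 (0.897) and miR-103-3p at -0.07 ± 0.21 (0.825). The median of the 6 was -0.34, beside 0.02 over all miRNAs. The summed red cell and lymphocyte markers, given above, were also lower in all MCAO libraries than in all Naive ones, as they were in all ICH and ICH_Sham libraries. Within the red cell list miR-451a was not lower, with means of 6842 CPM in MCAO and 6323 CPM in Naive. With the same covariate, miR-423-3p was at -0.999 (edgeR adjusted p = 0.0183) and miR-484 at -0.66 (0.0833). miR-423-3p passed in all 42 alternatives, with log2 fold changes from -1.58 to -0.76, and miR-484 in 29 of 42. Without the 3 libraries of low TMM factor, miR-423-3p was at -1.01 (edgeR adjusted p = 0.0468) and miR-484 at -0.73 (0.0878). miR-484 also missed the threshold without MCAO replicate 2 (-0.72), MCAO replicate 3 (-0.87) or Naive replicate 4 (-0.76). This comparison and the one with MCAO_Sham share the MCAO libraries.

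**Figure D2:**
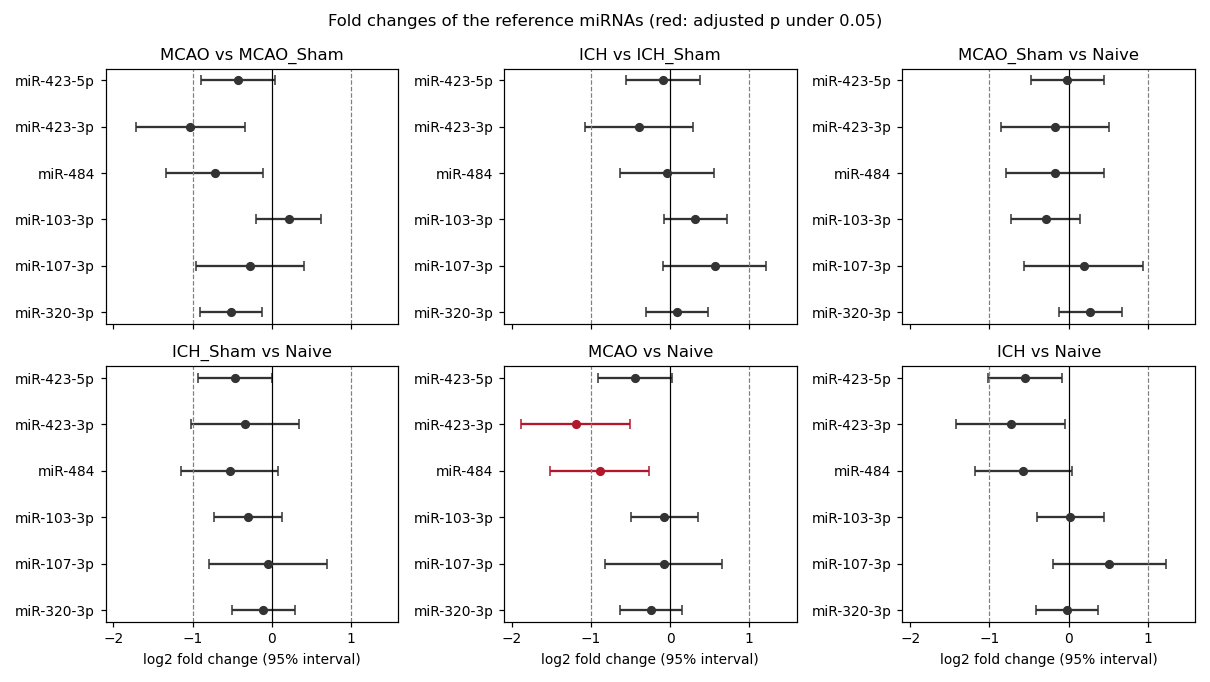
Log2 fold change of each reference miRNA with its 95% interval (x axis) in the 6 pairwise comparisons; dashed lines mark a doubling and a halving, and red marks an edgeR adjusted p under 0.05. The red points are miR-423-3p (-1.20) and miR-484 (-0.89) in MCAO against Naive, and the intervals of miR-103-3p and miR-320-3p stay between the dashed lines in all 6.

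The index tags in the labels were divided into a lower and an upper range at a cut chosen for these comparisons. Over all groups the tag numbers run on without a gap across this cut. Within MCAO, MCAO_Sham and Naive, however, the tags leave a wide gap, which only ICH and ICH_Sham tags fill. Any cut inside that gap divides the MCAO, MCAO_Sham and Naive libraries in the same way. The choice of cut decides where ICH and ICH_Sham libraries fall. Comparisons with ICH or ICH_Sham by tag range, and fits with the tag range as a block, therefore rest on it. MCAO replicates 2, 3 and 4, MCAO_Sham replicates 4 and 7 and Naive replicate 1 had tags in the lower range. The ranges were looked at apart. In the lower range (3 MCAO against 2 MCAO_Sham libraries) the difference in mean log2 CPM was -1.73 for miR-423-3p and -1.20 for miR-484. In the upper range (2 against 3 libraries) it was -0.35 for miR-423-3p and -0.10 for miR-484. Against Naive, miR-423-3p differed by -2.04 in the lower range (3 against 1 library) and by -0.46 in the upper one (2 against 4 libraries). miR-484 differed from Naive by -0.96 in the lower and -0.48 in the upper range. miR-320-3p differed from MCAO_Sham by similar amounts in both ranges, -0.39 and -0.54, but from Naive by 0.24 in the lower and -0.30 in the upper range. With the tag range as a block, miR-423-3p had a log2 fold change of -1.05 against MCAO_Sham (edgeR adjusted p = 0.0374) and -1.08 against Naive (0.0172), whereas miR-484 no longer passed against Naive (-0.79, adjusted p = 0.0626). What the tags stand for besides the library label is not given in the labels, and their part in the result was not tested further.

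ICH against ICH_Sham asks what the injected blood added to the needle. No member was called, nor was any of the 199 miRNAs (0%, edgeR quasi-likelihood test), with 0 of the 6 members and 20 of all miRNAs under an unadjusted p of 0.05. DESeq2 and limma voom also called 0 of the 6. Log2 fold changes ranged from -0.39 ± 0.33 for miR-423-3p to 0.56 ± 0.32 for miR-107-3p (edgeR adjusted p = 0.661 and 0.472). The 95% intervals of miR-423-5p (-0.55 to 0.38), miR-484 (-0.64 to 0.56), miR-103-3p (-0.08 to 0.72) and miR-320-3p (-0.31 to 0.48) lay within a halving and a doubling. Those of miR-423-3p (-1.07 to 0.29) and miR-107-3p (-0.09 to 1.21) did not. Over all 199 miRNAs 68.3% of intervals lay within these bounds.

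The 2 sham operations against Naive ask what surgery without stroke did. All ICH and ICH_Sham libraries had tags of the lower range and 4 of 5 Naive libraries tags of the upper one, so in ICH or ICH_Sham against Naive group and tag range can hardly be told apart. In MCAO_Sham against Naive no member was called, against 0.503% of all miRNAs, and log2 fold changes lay between -0.29 ± 0.21 for miR-103-3p and 0.28 ± 0.19 for miR-320-3p. All 6 intervals stayed within a halving and a doubling there, as did 56.8% of all miRNAs. In ICH_Sham against Naive no member was called, against 6.53% of all miRNAs. miR-484 was at -0.53 ± 0.30 (edgeR adjusted p = 0.359) and miR-423-5p at -0.47 ± 0.23 (0.291), and the median of the 6 was -0.32, beside -0.05 over all miRNAs. With the tag range as a block, miR-484 was at -0.28 (edgeR adjusted p = 0.736) and miR-423-3p at 0.19 (0.831), where it was at -0.34 without the block (0.614), and 6 of all miRNAs were called.

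ICH against Naive called none of the 6, where 14.6% of all miRNAs were called. miR-423-3p was at -0.73 ± 0.33 (edgeR adjusted p = 0.137), miR-484 at -0.57 ± 0.30 (0.208) and miR-423-5p at -0.55 ± 0.23 (0.101), while miR-107-3p was at 0.52 ± 0.35 (0.344). With the tag range as a block, miR-423-3p was at -0.20 (edgeR adjusted p = 0.734), miR-484 at -0.32 (0.568), miR-423-5p at -0.58 (0.167) and miR-107-3p at 1.12 (0.0579), with 20 of all miRNAs called. With the red cell ratio as a covariate 3 of the 6 and 44 of all 199 miRNAs passed in this comparison. These members were miR-423-3p at -1.19 (edgeR adjusted p = 0.00488), miR-484 at -0.91 (0.0201) and miR-423-5p at -0.68 (0.0355). The mean of the 4 operated groups against Naive called none of the 6 and 8.54% of all miRNAs, with miR-423-3p at -0.61 ± 0.25 (edgeR adjusted p = 0.103). The difference between the MCAO and ICH effects over their shams called none of the 6 and 1.01% of all miRNAs. miR-320-3p differed by -0.61 ± 0.27 there (edgeR adjusted p = 0.290). Before adjustment p was under 0.05 for 0 members and 9.05% of all miRNAs in MCAO_Sham against Naive, 1 and 17.1% in ICH_Sham against Naive, and 2 and 28.6% in ICH against Naive. It was so for 3 members and 30.2% in the operated groups, and for 1 member and 16.6% in the difference of effects. DESeq2 and limma voom called 0 of the 6 in each of these. Over all 5 groups at once, miR-423-3p differed (edgeR F test, adjusted p = 0.0414) where 33.2% of all miRNAs were called. The other 5 had adjusted p-values of 0.105 for miR-423-5p, 0.112 for miR-484, 0.198 for miR-320-3p, 0.407 for miR-107-3p and 0.433 for miR-103-3p. The F test result for miR-423-3p did not hold with library totals alone, in either run alone, without the 3 libraries of low TMM factor, without any 1 of 8 single libraries, or with an offset for base composition.

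A p-value above the threshold does not show that a reference held still, so the intervals were read against a doubling, which is 1 qPCR cycle. In all 6 pairwise comparisons the 95% intervals of miR-103-3p and miR-320-3p lay within -1 to 1 on the log2 scale, as they did for 22.1% of all miRNAs. miR-423-5p stayed within these bounds in 5 comparisons, miR-107-3p in 4, miR-484 in 2 and miR-423-3p in 1. Within the narrower bounds of -0.5 to 0.5, miR-103-3p and miR-320-3p lay in 2 of 6 comparisons each and miR-423-5p in 1. No member did so in all 6, and 0.503% of all miRNAs did.

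Over the 25 libraries the SD of log2 CPM was 0.262 for miR-103-3p, rank 6 of 199 from the steadiest, and 0.294 for miR-320-3p, rank 15. miR-423-5p followed with 0.421 (rank 68), miR-107-3p with 0.501 (rank 96), miR-484 with 0.548 (rank 115) and miR-423-3p with 0.766 (rank 175), beside a median of 0.508 over all 199. Counting error alone gives an SD of about 0.255 at the depth of miR-103-3p, close to its measured SD. For miR-107-3p counting gives 0.365 and for miR-484 0.218, whereas for miR-423-3p it gives 0.0661, far under the measured spread. With library totals in place of TMM, the SD of miR-320-3p was 0.412 and its rank 48, and miR-103-3p had 0.305 and rank 10. The 5 miRNAs with the lowest SD were miR-146a-5p (0.189), miR-99a-5p (0.212), miR-28a-3p (0.239), miR-140-3p (0.240) and let-7b-5p (0.245), none of them a member. These ranks are descriptions and carry no test.

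Ratios between members need no scaling of the libraries. The steadiest pair was miR-423-5p with miR-320-3p, whose log2 ratio had an SD of 0.386 over 25 libraries, followed by miR-103-3p with miR-107-3p (0.417) and miR-423-3p with miR-484 (0.430). The least steady was miR-423-3p with miR-103-3p (0.842). Averaged over its 5 ratios, the SD was lowest for miR-320-3p (0.496), then miR-484 (0.550), miR-103-3p (0.589), miR-423-5p (0.614), miR-107-3p (0.645) and miR-423-3p (0.695). miR-484 thus came next to the steadiest by ratios but next to the least steady by its own level. This order was read from counts with 0.5 added, and with 5 added the means ran from 0.466 for miR-320-3p to 0.656 for miR-423-3p, with miR-107-3p (0.547) ahead of miR-423-5p (0.574).

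The arms of the miR-423 hairpin did not keep a fixed ratio. The log2 ratio of miR-423-5p to miR-423-3p was -0.06, 2.68, 1.81, 1.37 and 0.19 in MCAO, against 0.27, -0.11, 0.86, 0.52 and 0.28 in MCAO_Sham. It was 2.23, -0.29, -0.07, 0.03 and 0.36 in ICH, against -0.20, -0.04, 0.16, 0.24 and 0.15 in ICH_Sham, and 0.12, 0.09, 0.46, 0.19 and 0.11 in Naive. MCAO replicates 2, 3 and 4 and ICH replicate 1 were above all other libraries, while the remaining libraries lay between -0.29 and 0.86. Summed over a group, the 5p arm made up 69.5% of miR-423 reads for MCAO, 57.6% for MCAO_Sham, 55.9% for ICH, 51.1% for ICH_Sham and 53.2% for Naive. The mean ratio differed by 0.83 between MCAO and MCAO_Sham (exact two-sided permutation test, p = 0.175, adjusted p = 0.419 over 12 tests) and by 1.004 between MCAO and Naive (p = 0.143, adjusted p = 0.419). Without MCAO replicate 2 these differences were 0.46 and 0.63 (exact permutation test, adjusted p = 0.519 and 0.490).

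For the paralogs, the log2 ratio of miR-103-3p to miR-107-3p had means of 1.25 ± 0.51 in MCAO and 0.65 ± 0.29 in MCAO_Sham. The ICH mean was 0.72 ± 0.32, the ICH_Sham mean 0.95 ± 0.23 and the Naive mean 1.19 ± 0.42 (SD over 5 libraries). The smallest p of the 12 ratio tests was that of MCAO_Sham against Naive, a difference of -0.54 (exact permutation test, p = 0.0476, adjusted p = 0.381). MCAO against MCAO_Sham gave 0.60 (exact permutation test, p = 0.0635, adjusted p = 0.381). miR-103-3p was the more abundant paralog in every library, since the lowest log2 ratio was 0.24.

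**Figure D3:**
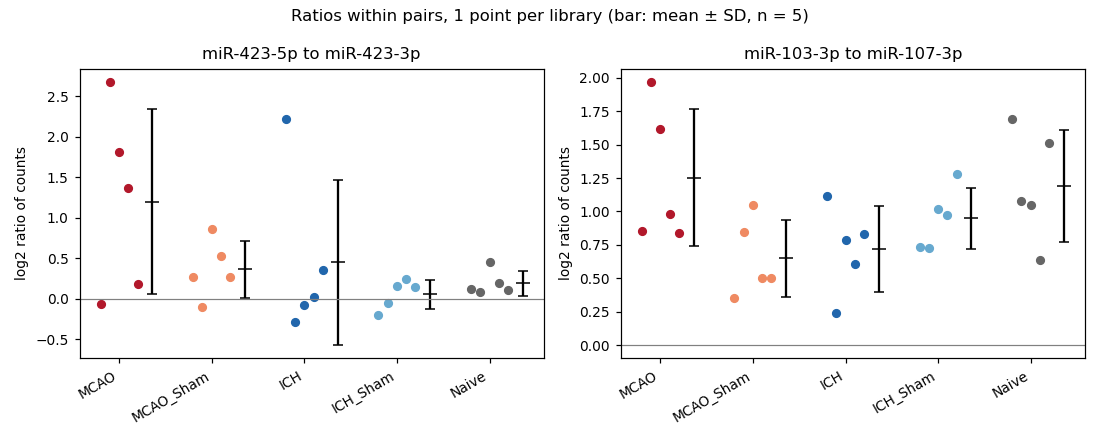
Log2 ratio of counts within 2 pairs (y axes) in the 5 groups, 1 point per library, with mean ± SD beside them (n = 5). The miR-423 arms are near equal in ICH_Sham (mean 0.06) and Naive (0.20) but reach 2.68 in 1 MCAO library and 2.23 in 1 ICH library, and the miR-103-3p to miR-107-3p ratio is above 0 in all libraries.

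The members differed in base composition. GC content was 65.2% for miR-423-3p, 63.6% for miR-484 and 56.5% for miR-423-5p, but 47.8% for miR-103-3p and miR-107-3p, with a median of 47.7% over the 168 of 199 kept miRNAs that had a sequence (84.4%). Only 4 of these had a higher GC content than miR-423-3p and 7 a higher one than miR-484. Across the 168 miRNAs, the log2 fold change of MCAO against MCAO_Sham had a Spearman correlation of -0.68 with GC content (Pearson -0.51). The median log2 fold change was 0.43 for the 54 miRNAs under 45% GC and -0.64 for the 34 at 55% or more. Each point rests on the same 10 libraries, so the miRNAs are not independent and no p is given. The correlation was -0.46 for MCAO against Naive, -0.27 for ICH against ICH_Sham, -0.24 for ICH against Naive, -0.13 for ICH_Sham against Naive and 0.09 for MCAO_Sham against Naive.

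**Figure D4:**
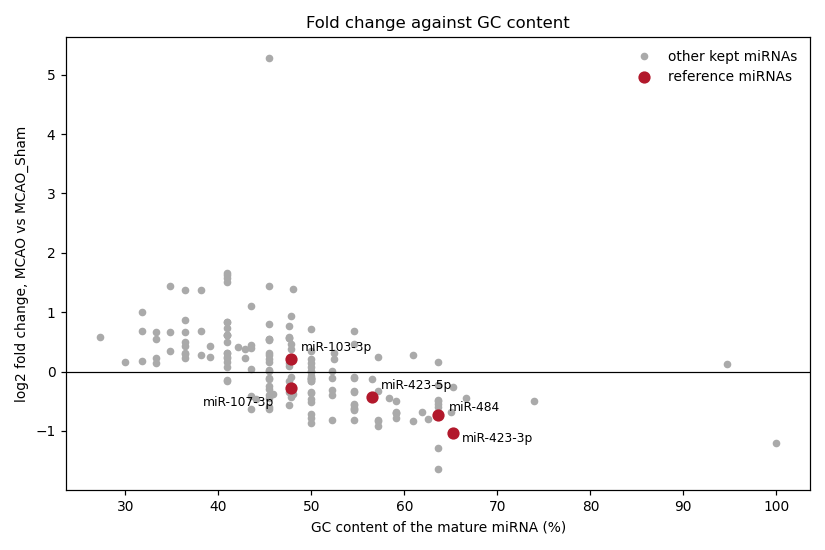
Log2 fold change of MCAO against MCAO_Sham (y axis) by GC content of the mature miRNA (x axis, %) for the 168 kept miRNAs with a sequence, with 5 reference miRNAs in red. miR-423-3p (65.2% GC, -1.03) and miR-484 (63.6% GC, -0.72) lie low at the right, and miR-103-3p (47.8% GC) lies at 0.22.

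Within libraries, the trend with GC content was strongest in MCAO replicate 2, where log2 levels relative to the mean of all libraries differed by -0.39 per 10% of GC, and in MCAO_Sham replicate 1, where they differed by 0.38. The slopes were -0.18, -0.39, -0.30, -0.20 and 0.04 in MCAO and 0.38, 0.07, -0.02, 0.16 and 0.17 in MCAO_Sham. With a linear GC offset per library, an alternative chosen after seeing the data, miR-423-3p stood at -0.51 against MCAO_Sham (edgeR adjusted p = 0.252) and miR-484 at -0.21 (0.669). In that setting miR-423-5p was at -0.13 (edgeR adjusted p = 0.789), miR-107-3p at -0.31 (0.616) and miR-103-3p at 0.19 (0.605). Against Naive, miR-423-3p still passed at -0.76 (edgeR adjusted p = 0.0385), while miR-484 was at -0.42 and did not pass (0.205). The offset also removes any true change that follows GC content, and which of these it removed was not tested. Among the 168 miRNAs it left 3 calls in MCAO against MCAO_Sham, where 12 were called without it, and 34 in MCAO against Naive, where 58 were called without it.

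The choice of reference moved other miRNAs. When each library was scaled to the mean of the 6 members in place of TMM, 63 of the other 193 miRNAs were called in MCAO against MCAO_Sham (62 higher and 1 lower), of which 12 were also called under TMM. With TMM 15 were called, 11 higher and 4 lower. The median shift of log2 fold changes was 0.54. In MCAO against Naive, scaling to the members called 90 (85 higher and 5 lower), whereas TMM called 59 (35 higher and 24 lower), with a median shift of 0.58. In ICH against ICH_Sham both scalings called 0, and the shift was -0.01. In ICH_Sham against Naive both called 13, with 9 shared, and in ICH against Naive both called 29, with 22 shared. There the members as scale gave 24 higher and 5 lower in ICH against Naive, while TMM gave 17 higher and 12 lower.

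**Figure D5:**
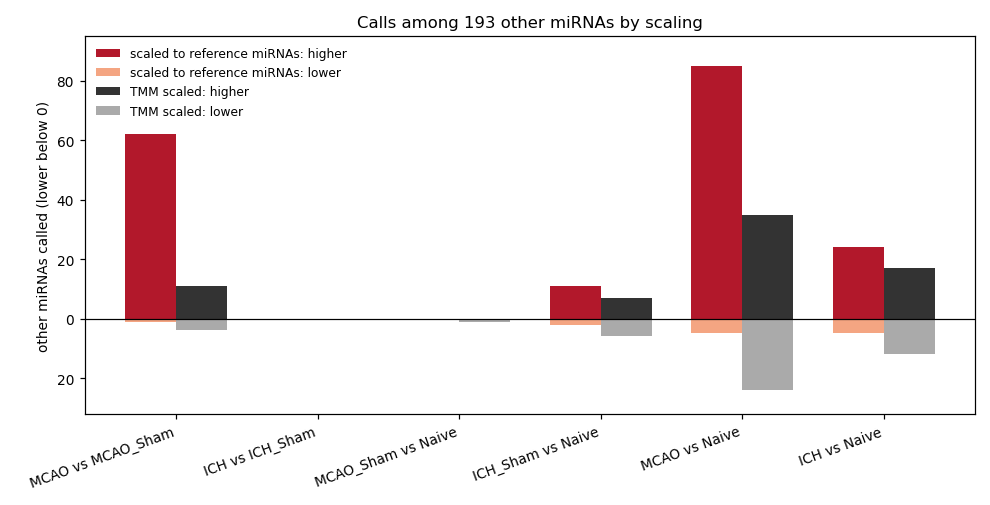
Number of the 193 other miRNAs with an edgeR adjusted p under 0.05 (higher above 0, lower below 0 on the y axis) in the 6 pairwise comparisons, with libraries scaled to the reference miRNAs (left bars) or by TMM (right bars). In MCAO against MCAO_Sham the calls are 62 higher and 1 lower with the reference miRNAs as scale and 11 higher and 4 lower with TMM.

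Taking 1 member at a time shows how far the reference alone moved a result. 4 miRNAs known from earlier results of these data served as targets, so their own differences are descriptions. The log2 difference of miR-1298-5p between MCAO and MCAO_Sham was 5.25 with miR-103-3p as the reference and 6.67 with miR-423-3p, a gap of 1.42 that the pair of references sets for every target. miR-34c-5p stood at 1.54 with miR-103-3p and 2.97 with miR-423-3p. These sizes depend on the 0.5 added to counts, since MCAO_Sham libraries had 0 to 8 reads of miR-1298-5p and 2 to 9 of miR-34c-5p. With 5 added, miR-1298-5p was at 3.54 and 4.88 and miR-34c-5p at 0.93 and 2.26 with miR-103-3p and miR-423-3p, and the gap was 1.33. For miR-150-5p, a lymphocyte miRNA, the sign depended on the reference, at -0.70 with miR-103-3p, 0.01 with the mean of all 6 and 0.73 with miR-423-3p. The liver miRNA miR-122-5p likewise stood at -0.29 with miR-103-3p and 1.13 with miR-423-3p. The gap between the extreme references was 0.57 in MCAO_Sham against Naive and 0.47 in ICH_Sham against Naive.

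Among the other 193 miRNAs, with the members left aside, those that ran most closely with each member were named by the lowest SD of the log2 ratio to it over the 25 libraries. For miR-423-5p these were miR-361-3p (0.219), miR-151-3p (0.260) and miR-744-5p (0.280). For miR-423-3p they were miR-92a-3p (0.338), miR-328-3p (0.414) and miR-361-5p (0.455), and for miR-484 miR-328-3p (0.339), let-7d-3p (0.379) and miR-361-5p (0.383). miR-103-3p ran with let-7j (0.310), let-7b-5p (0.328) and miR-101a-3p (0.329), and miR-320-3p with miR-339-5p (0.282), miR-744-5p (0.293) and miR-99a-5p (0.301). Of the 193, miR-181a-5p came closest to miR-107-3p (0.491), less close than its paralog miR-103-3p (0.417). The closest companions of miR-423-3p and miR-484 overlapped in 2 names, and those of miR-103-3p with theirs in none.

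Another 20 miRNAs that are used as references in serum or plasma were read beside the 6, all of them kept. None was called in MCAO against MCAO_Sham, ICH against ICH_Sham or MCAO_Sham against Naive, where 7.54%, 0% and 0.503% of all miRNAs were called. In MCAO against Naive 7 of 20 passed, beside 30.7% of all miRNAs. miR-152-3p (1.43 ± 0.27) and miR-30e-5p (0.83 ± 0.27) were higher there. miR-92a-3p (-1.33 ± 0.33), miR-328-3p (-0.91 ± 0.28), miR-361-5p (-0.78 ± 0.27), let-7d-3p (-0.73 ± 0.24) and miR-191-5p (-0.62 ± 0.19) were lower. In ICH against Naive 5 of 20 passed, beside 14.6% of all miRNAs: miR-152-3p was higher at 1.28 ± 0.27, and miR-92a-3p, miR-191-5p, miR-328-3p and miR-425-5p were lower, between -1.02 and -0.76. miR-152-3p was also higher in ICH_Sham against Naive (0.90 ± 0.27), the only one of the 20 called there, beside 6.53% of all miRNAs. In the operated groups against Naive 3 of 20 passed, beside 8.54%, and in the test over all 5 groups 8 of 20, beside 33.2%. By SD of log2 CPM the steadiest of the 20 were miR-30c-5p (0.289, rank 11), let-7a-5p (0.314, rank 19) and miR-25-3p (0.332, rank 23). The widely used miR-16-5p, which is abundant in red cells, had 0.400 (rank 53).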

How the data were processed

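RNA from 200 µL of serum was taken at a fixed volume into NEBNext small RNA libraries, per the labels' protocols. Hemolysis was checked by absorbance and a worm miRNA was spiked in, per the labels' protocols; no spike-in scaling was made here. The submitters' processing notes name Bowtie 0.12.9. Which build, annotation and rule for multiply matching reads were used is not given in the sources used here. In all, the authors deposited a table of whole-number counts per mature miRNA, not normalized, with 2 runs for each of 25 libraries. Runs with the same index tag were summed as 1 library. Chi-square over its degrees of freedom (101 to 179) between the runs was 0.792 to 1.27, with p under 0.05 in 2 of 25 libraries and the smallest adjusted p 0.454. The reads carry no molecular identifiers, so counting error is a lower limit of the error.

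Low counts were filtered with edgeR's filterByExpr (minimum count 10) and libraries scaled by TMM. All 25 libraries entered 1 edgeR model with group means (20 residual degrees of freedom), tested by robust quasi-likelihood and Benjamini-Hochberg adjusted over 199 miRNAs with a threshold of 0.05. Log2 CPM had a prior count of 2. Ratios used counts plus 0.5 and exact two-sided permutation tests, whose p was adjusted over 12 tests. On simulated counts for MCAO against MCAO_Sham (198 miRNAs tested), the edgeR test called 20 of 20 miRNAs changed 4-fold, 12 of 19 changed 2-fold and 0 of 159 unchanged ones. Every miRNA was simulated with the same dispersion and without a GC trend, unlike the real libraries, so these calls give no error rate for them. Versions were SciPy 1.17.1 and matplotlib 3.10.9 in Python 3.11.15, and DESeq2 1.42.0, limma 3.58.1 and edgeR 4.0.16 in R 4.3.3.

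The members and all lists were chosen with earlier results of these data known. Named miRNAs were the 6 members, the other arms of their hairpins, 20 other references (by name where they passed), the 3 closest to each member, the 5 with the lowest SD, those sharing a seed and 4 targets. Only 1 companion of miR-107-3p is printed. Alternatives concerned scaling, filter, tool, run, each library left out, replicate and tag blocks, the red cell ratio, depth and the groups fitted, and, added after seeing the data, GC content and libraries of low TMM factor. Marker lists covered red cells, platelets and myeloid cells, lymphocytes, liver, muscle and neurons.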

Additional observations from a re-analysis of the deposited data

Results flagged for a closer look

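Of 40 sets of 5 libraries looked at (levels of the 6 members and 2 ratios in each group), 3 held a library that stood apart from the other 4 by more than Dixon's critical value of 0.71; chance alone flags about 1 in 20 sets. miR-103-3p was at 573 CPM in MCAO replicate 1, where the gap to the next library was 0.749 of the range. The log2 ratio of miR-423-5p to miR-423-3p was 2.23 in ICH replicate 1 (0.742 of the range), which had 193 reads of miR-423-3p and 906 of miR-423-5p. The same ratio was 0.46 in Naive replicate 3 (0.721 of the range), a small deviation within a tight group.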

How the results depend on the processing

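Each of 54 member results was recomputed under up to 42 alternatives. Of 2223 values, 2159 kept their side of the threshold, 27 called results lost it and 37 gained it; 91 changed sign, none of them called on either side. In MCAO against MCAO_Sham (0 members called), 1 was called with upper quartile scaling, no count filter, limma voom, the tag block or thinning to the smallest total, and 2 with DESeq2. Leaving out libraries gave 0 to 3: 3 without MCAO replicate 5; 2 without MCAO_Sham replicate 4, ICH replicate 1 or 3 or Naive replicate 3; and 1 without MCAO 1, MCAO_Sham 2, ICH 2 or 5, ICH_Sham 3, 4 or 5, or Naive 1, 4 or 5. In MCAO against Naive (2 called), 1 was called with upper quartile scaling, library totals, no count filter, run 2 alone, the tag block, the red cell covariate, the 2 groups alone, the GC offset with or without the block, or without the 3 libraries with a TMM factor under 0.75. Leaving out libraries gave 1 to 2, with 1 without MCAO replicate 2 or 3 or Naive replicate 4, where miR-484 was lost (edgeR adjusted p = 0.0931, 0.0514 and 0.0771). In ICH against Naive (0 called) the red cell covariate gave 3 and leaving out libraries 0 to 1 (1 without ICH 1 or Naive 2). For operated against Naive (0 called) these were 2 and 0 to 1 (1 without MCAO 5). For any difference among groups (1 called), library totals, either run alone, the GC offset with or without the block, or leaving out the low TMM libraries gave 0, the red cell covariate 2, and single libraries 0 to 1 (0 without MCAO 2, 3 or 4, MCAO_Sham 5, ICH 4, ICH_Sham 1 or Naive 2 or 5). Unless stated, the cause was not tested. Over all miRNAs tested (199 in the main setting), MCAO against MCAO_Sham had 15 calls, but 43 with DESeq2, 30 with upper quartile scaling, 29 with limma voom and 5 with library totals. It had 2 with the red cell covariate, the 2 groups alone or without the low TMM libraries. Some settings tested another set of miRNAs. Without the count filter all 925 miRNAs with a count entered, and 25 were called. The GC offset was confined to the 168 miRNAs with a sequence. Of these 12 were called without it, 3 with it and 2 with it and the block. The median of all miRNAs shifted by up to 0.29 with upper quartile scaling (ICH against Naive) and by -0.19 with library totals (MCAO against MCAO_Sham).

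With the replicate number as a block, 0 members were called in MCAO against MCAO_Sham and 2 in MCAO against Naive, as without it, and no other count of called members changed; over all miRNAs, operated against Naive had 26 calls with it and 17 without. Whether the numbers pair the libraries was not settled: correlations of same-numbered libraries ran from -0.28 to 0.37, and in no comparison did every pair exceed 0.1. In ICH_Sham against Naive all 5 were positive (0.02 to 0.26) and 4 exceeded 0.1, whereas in MCAO_Sham against Naive 0 of 4 did. Depth limits miR-107-3p (6 reads in 1 library) and miR-103-3p (15) most.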
